A study of Mus musculus with 4 samples.

Results

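The genes described here are 8 regulators and effectors of cholesterol and fatty acid metabolism, Hmgcs1, Insig1, Srebf1, Srebf2, Abca1, Abcg1, Nr1h2 and Cpt1a, as measured in the blood of mice given naringenin (Nar), a flavonoid. They were taken by gene symbol, from a list chosen with earlier results of these data known, and they are 8 of the 23136 genes listed. All 8 had a value in each of the 4 libraries. The libraries came from C57BL/6 mice labelled adult, which the study describes as aging. There were 2 libraries from mice treated with Nar for 30 days (Nar 1 and Nar 3) and 2 from control mice given phosphate-buffered saline over the same time (Ctrl 1 and Ctrl 3). The study gave Nar into the tail vein, the route of the saline is not given in the sources used here, and no group carries a genetic change in the labels. The Nar libraries are labelled Nari. Messenger RNA was selected from blood with oligo(dT) beads, and its level is given as FPKM (fragments per kilobase of transcript scaled to the mapped fragments of the library), which is scaled for transcript length, so that levels of different genes can be compared. The labels do not say that the libraries of a group came from separate mice, so p-values measure the spread between these libraries only.

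Blood RNA is dominated by red cell messages, and haemoglobin genes made up between 92.6% and 96.4% of the summed FPKM in the 4 libraries. The median log2 fold change of 5339 tested genes between Nar and control was -1.07. A gene that is level with the typical gene is therefore lower with Nar on the deposited scale. For this reason each member is also given after median-of-ratios scaling, which divides every library by the median of its ratios over the tested genes and brings that median to -0.0016. In bulk blood, fewer cells of a type and less RNA per cell cannot be told apart.

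Cells hold their cholesterol steady with a pair of opposed systems. When membrane cholesterol is low, the sterol regulatory element-binding proteins, encoded by Srebf1 and Srebf2, are released from the endoplasmic reticulum, enter the nucleus and switch on genes of sterol and fatty acid synthesis, among them Hmgcs1, which encodes the cytosolic enzyme that makes HMG-CoA for the mevalonate pathway, and Insig1, which encodes the protein that holds the precursors back when sterols are plentiful. When cholesterol is in excess, its oxidised derivatives activate the liver X receptors, of which Nr1h2 encodes LXR-beta, and these raise Abca1 and Abcg1, the transporters that export cholesterol to apolipoprotein A-I and to HDL particles. Cpt1a encodes the carnitine palmitoyltransferase of the outer mitochondrial membrane, the rate-limiting step for the entry of long-chain fatty acids into beta-oxidation.

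All 8 genes are protein-coding in the GENCODE M21 annotation of GRCm38, the build that the submitters' processing notes name. Hmgcs1 lies on the plus strand of chr13:119690379-119708260, Insig1 on the plus strand of chr5:28071363-28078662, Srebf1 on the minus strand of chr11:60199089-60222581 and Srebf2 on the plus strand of chr15:82147181-82205379. Abca1 lies on the minus strand of chr4:53030787-53159895 and Abcg1 on the plus strand of chr17:31057675-31117988. Nr1h2 is on the minus strand of chr7:44549616-44553951 and Cpt1a on the plus strand of chr19:3322334-3385733.

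Promoter windows from RefSeq (GRCm38.p6) matched 7 of the 8 members, with 9 windows in all, since Srebf1 has several start sites. Abcg1 had no entry. The 250 bases before each start were searched on both strands for TCACNCCAC, the core of the sterol regulatory element, and for CCAAT, the box bound by NF-Y, a factor that works beside the sterol regulatory element-binding proteins. They were also searched for CACGTG, the E-box, for GGGCGG, the Sp1 box, and for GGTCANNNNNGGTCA, the direct repeat of liver X receptors. The letters TCACNCCAC were found in 1.05% of 32851 windows of this length and, among members, in that of Hmgcs1, from base -137 to base -129 before the start. CCAAT was found in 33.8% of windows, and Hmgcs1 held it 3 times on the minus strand, with further matches in Insig1, Srebf1, Srebf2 and Cpt1a. CACGTG, in 6.02% of windows, was found in Insig1 and Abca1, and GGGCGG, in 32.7%, in Hmgcs1, Insig1, Srebf1, Srebf2, Abca1 and Cpt1a. The exact repeat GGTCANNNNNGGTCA, in 0.0639% of windows, was in no member. A looser form, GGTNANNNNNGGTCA, with any base before the last A of the first copy, was added after the sequences were seen and occurs in 0.177% of windows. It was found on the minus strand of the Abca1 window, from base -67 to base -53, and of 1 of the Srebf1 windows, from base -182 to base -168. The CCAAT of Insig1 lies on the minus strand from base -216 to base -212. The window of Nr1h2 held none of these motifs. A match describes letters and is not a site shown to be bound.

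The stretches before the start of Hmgcs1, Insig1 and Abca1 are shown because these 3 genes are the textbook targets of the opposed systems, and because Hmgcs1 and Abca1 had the log2 fold changes nearest to 0 on the deposited scale, though not after median-of-ratios scaling. Each is written 5′ to 3′ on the strand of its gene. In Hmgcs1 (chr13:119690101-119690350, plus strand) capitals mark the sterol regulatory element core and the CCAAT boxes, which read ATTGG on this strand. In Insig1 (chr5:28071162-28071362, plus strand) they mark the CCAAT box and the E-box, and the stretch stops at base -50, where the GENCODE gene starts. In Abca1 (chr4:53159896-53160145, minus strand) they mark the E-box and the liver X receptor repeat, which reads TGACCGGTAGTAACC on this strand.
Hmgcs1: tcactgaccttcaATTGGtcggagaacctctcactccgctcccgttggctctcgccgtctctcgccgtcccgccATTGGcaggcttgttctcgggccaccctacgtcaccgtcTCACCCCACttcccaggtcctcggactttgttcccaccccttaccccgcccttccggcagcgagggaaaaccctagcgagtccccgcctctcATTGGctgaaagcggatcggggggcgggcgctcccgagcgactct
Insig1: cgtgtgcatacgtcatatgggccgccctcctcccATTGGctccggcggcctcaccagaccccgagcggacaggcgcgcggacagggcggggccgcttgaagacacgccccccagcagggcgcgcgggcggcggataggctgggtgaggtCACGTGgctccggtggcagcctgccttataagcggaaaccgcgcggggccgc
Abca1: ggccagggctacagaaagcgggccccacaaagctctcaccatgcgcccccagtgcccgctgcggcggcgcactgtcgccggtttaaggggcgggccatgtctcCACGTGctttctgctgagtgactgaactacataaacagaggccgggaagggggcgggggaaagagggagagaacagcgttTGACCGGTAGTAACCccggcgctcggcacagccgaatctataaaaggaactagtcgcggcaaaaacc

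No member exceeded 7.64 FPKM in any library. Nr1h2 and Cpt1a lay above the median of the tested genes in every library, and the other members lay below it. In controls the mean level fell from 6.78 FPKM for Nr1h2 over 2.89 for Cpt1a, 1.27 for Srebf2, 0.905 for Abcg1, 0.815 for Srebf1, 0.46 for Abca1 and 0.385 for Insig1 to 0.24 for Hmgcs1. The control libraries of Insig1 overlapped those of its neighbours Abca1 and Hmgcs1 in this order, while Abca1 lay above Hmgcs1 in both. With Nar the order was Nr1h2 at 2.71, Cpt1a at 0.965, Srebf2 at 0.625, Abca1 at 0.37, Srebf1 at 0.295, Hmgcs1 at 0.225, Abcg1 at 0.21 and Insig1 at 0.13 FPKM. In the Nar libraries Abca1 overlapped Srebf1, Srebf1 overlapped Hmgcs1, and Hmgcs1 overlapped Abcg1. Abcg1 was thus above Abca1 in both control libraries and below it in both Nar libraries.

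**Figure D1:**
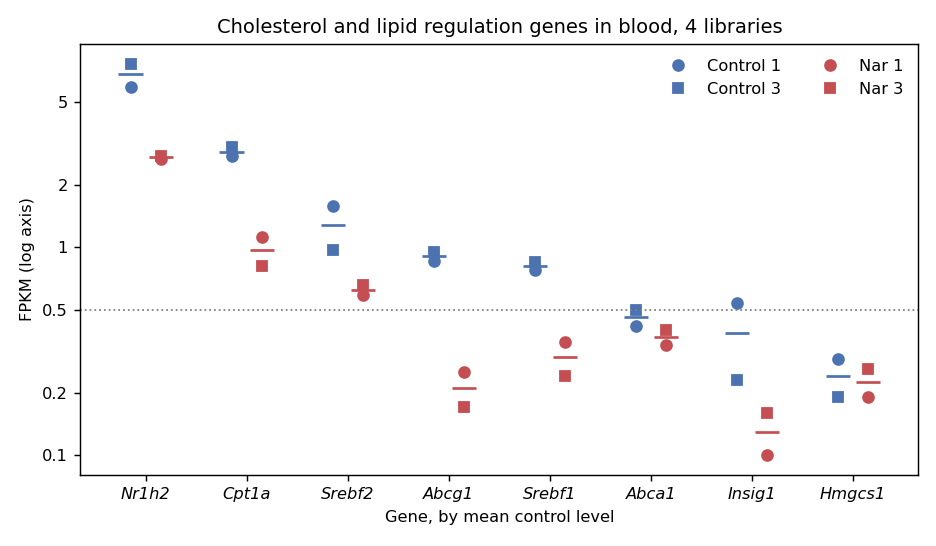
FPKM of the 8 genes in each of the 4 libraries on a log axis, with genes ordered by their mean control level. Circles are libraries 1 and squares libraries 3, short lines are means of 2 libraries, and the dotted line is the mean of 0.5 FPKM needed for the test; Abcg1 went from 0.905 to 0.21 FPKM and Hmgcs1 had 0.24 and 0.225.

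Of the 8 members, 5 had a mean of at least 0.5 FPKM over the 4 libraries and entered the limma fit of log2(FPKM + 0.1) over 5339 genes, and 4 of these 5 passed as lower with Nar at a Benjamini-Hochberg adjusted p-value under 0.05. Among all tested genes 39.6% passed as lower and 0.187% as higher, so that a fall is common in these libraries. The 4 were Abcg1, Cpt1a, Nr1h2 and Srebf1, and Srebf2 did not pass. Srebf1 and Abcg1 met the minimum through their control libraries, as both were under 0.5 FPKM in both Nar libraries, so the count over the 5 tested genes does not stand for all 8. Under median-of-ratios scaling, limma passed 0 of the 5 members, with 0 at an unadjusted p-value under 0.05. It passed 0.787% of the tested genes in either direction, and 797 of 5339 had an unadjusted p-value under 0.05. The 4 calls also rested on having all libraries, as did most calls among all tested genes. In each called member both Nar libraries lay below both controls, so leaving out any library could not turn the sign. With each library left out in turn, the log2 fold changes of the called members thus stayed below 0. They ran from -1.89 to -1.52 for Abcg1, -1.71 to -1.29 for Cpt1a, -1.46 to -1.10 for Nr1h2 and -1.43 to -1.02 for Srebf1. Without the minimum of 0.5 FPKM 0 of 8 passed and 4 had an unadjusted p-value under 0.05. Over all genes of that fit 0 of 16382 passed, and 4978 had an unadjusted p-value under 0.05.

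The transcription factor genes Srebf1 and Srebf2 both had lower values with Nar on the deposited scale. Srebf1 passed the test and Srebf2 did not, but Srebf1 met the minimum through its control libraries, and with no minimum its limma adjusted p was 0.115. Srebf1, whose products favour fatty acid synthesis, had control values of 0.78 (Ctrl 1) and 0.85 FPKM (Ctrl 3), against 0.35 (Nar 1) and 0.24 FPKM (Nar 3). Both Nar libraries lay far below both controls. The log2 fold change was -1.22 (standard error 0.407, limma adjusted p = 0.0429), and after median-of-ratios scaling it was -0.26 (standard error 0.421, limma adjusted p = 0.922). Srebf2, whose product favours cholesterol synthesis and uptake, was listed at 1.58, 0.97, 0.59 and 0.66 FPKM in the same order. The groups did not overlap, but the control libraries differed from each other by more than Ctrl 3 differed from either Nar library. Its log2 fold change was -0.89 (standard error 0.37, limma adjusted p = 0.0756), and median-of-ratios scaling turned the sign to 0.16 (standard error 0.395, limma adjusted p = 0.961). A change of Srebf2 was therefore not shown in either direction.

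The targets Hmgcs1 and Insig1 were under the minimum for the test and are described by their values. Hmgcs1 had control values of 0.29 (Ctrl 1) and 0.19 FPKM (Ctrl 3), against 0.19 (Nar 1) and 0.26 FPKM (Nar 3). The groups overlapped, and the Nar mean was 93.8% of the control mean. The log2 fold change of -0.06 was smaller than the spread between replicates of 0.26 on the same scale, and the exact two-sided permutation test gave p = 1. The change of Hmgcs1, though not its level, was above that of the typical gene, with an untested log2 fold change of 0.76 after median-of-ratios scaling. Relative to the median of the tested genes in the same library, its log2 level was -2.32 in Ctrl 1 and -2.84 in Ctrl 3. With Nar it was -1.77 and -1.22. The groups did not overlap on this measure, but the share of all genes for which this holds was not computed. The library median itself was 1.85 and 1.97 FPKM in the controls and 0.89 and 0.74 FPKM with Nar. The sign for Hmgcs1 thus depended on the scale.

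Insig1 had control values of 0.54 (Ctrl 1) and 0.23 FPKM (Ctrl 3), against 0.1 (Nar 1) and 0.16 FPKM (Nar 3). Both Nar libraries were below both controls, and Ctrl 1 stood well above Ctrl 3. The log2 fold change was -1.01 against a spread between replicates of 0.51, with an exact two-sided permutation p = 0.33, the smallest that 2 libraries against 2 allow. After median-of-ratios scaling it was -0.22, and with the median of the tested genes subtracted in each library it was 0.13, so the direction of Insig1 relative to the typical gene was not settled. With no minimum on FPKM, limma gave an adjusted p of 0.218 for Insig1 and 0.91 for Hmgcs1. Values of this size are also limited by the rounding of the deposited FPKM to 2 decimals.

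Nr1h2 was the highest of the 8 members in every library. It had control values of 5.92 (Ctrl 1) and 7.64 FPKM (Ctrl 3), against 2.67 (Nar 1) and 2.74 FPKM (Nar 3). The Nar libraries were nearly equal and both were below both controls. The log2 fold change was -1.28 (standard error 0.429, limma adjusted p = 0.0436), and after median-of-ratios scaling it was -0.14 (standard error 0.386, limma adjusted p = 0.969). With the replicate number as a block the adjusted p was 0.106, so that this call was lost. Over its 14 alternatives the limma adjusted p-value of Nr1h2 ran from 0.0124 to 0.972. The lowest came from a block with the pairing of libraries crossed, chosen after the data were seen. The lowest planned limma adjusted p was 0.0399, without the trend. Nr1h3, which encodes LXR-alpha, had 0.23 and 0.08 FPKM without Nar, against 0.05 and 0 FPKM with it, so Nr1h2 was the more abundant receptor gene in each library.

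The transporter genes Abca1 and Abcg1, which respond to the same receptors, are described by their values first. That Abcg1 was tested and Abca1 was not follows in part from the minimum, which Abcg1 met through its control libraries, and is no difference between them. Abcg1 had the lowest log2 fold change of the 8 members, except with a pseudocount of 1, where it was -0.66 beside -1.06 for Nr1h2 and -0.99 for Cpt1a. It had control values of 0.86 (Ctrl 1) and 0.95 FPKM (Ctrl 3), against 0.25 (Nar 1) and 0.17 FPKM (Nar 3), and the Nar mean was 23.2% of the control mean. The groups were separated by more than the spread within either. The log2 fold change was -1.71 (standard error 0.421, limma adjusted p = 0.0212), lower than that of all but 11.8% of the tested genes. After median-of-ratios scaling Abcg1 was still lower, by a log2 fold change of -0.77 (standard error 0.446), which did not pass (limma adjusted p = 0.526, unadjusted p = 0.115). Over its 14 alternatives the log2 fold change of Abcg1 ran from -2.08 to -0.57 and its adjusted p-value from 0.0141 to 0.695.

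Abca1 was under the minimum for the test, with control values of 0.42 (Ctrl 1) and 0.5 FPKM (Ctrl 3), against 0.34 (Nar 1) and 0.4 FPKM (Nar 3). Both Nar libraries were below both controls, but Nar 3 and Ctrl 1 nearly met. The Nar mean was 80.4% of the control mean, the log2 fold change was -0.25 against a spread between replicates of 0.14, and the exact two-sided permutation test gave p = 0.33. After median-of-ratios scaling the sign turned, with a log2 fold change of 0.69. Relative to the library median, the log2 level of Abca1 was -1.91 and -1.79 in the controls and -1.17 and -0.75 with Nar. Without the minimum, limma gave an adjusted p of 0.526 for Abca1.

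Counting groups that do not overlap, all 5 tested members had both Nar libraries below both controls, where 78.3% of the tested genes did. Of the 3 members under the minimum, Insig1 and Abca1 did and Hmgcs1 did not, where 40.4% of 11043 genes between 0 and that minimum did. With so few members these counts cannot be told from the background, and they do not set the members apart.

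**Figure D2:**
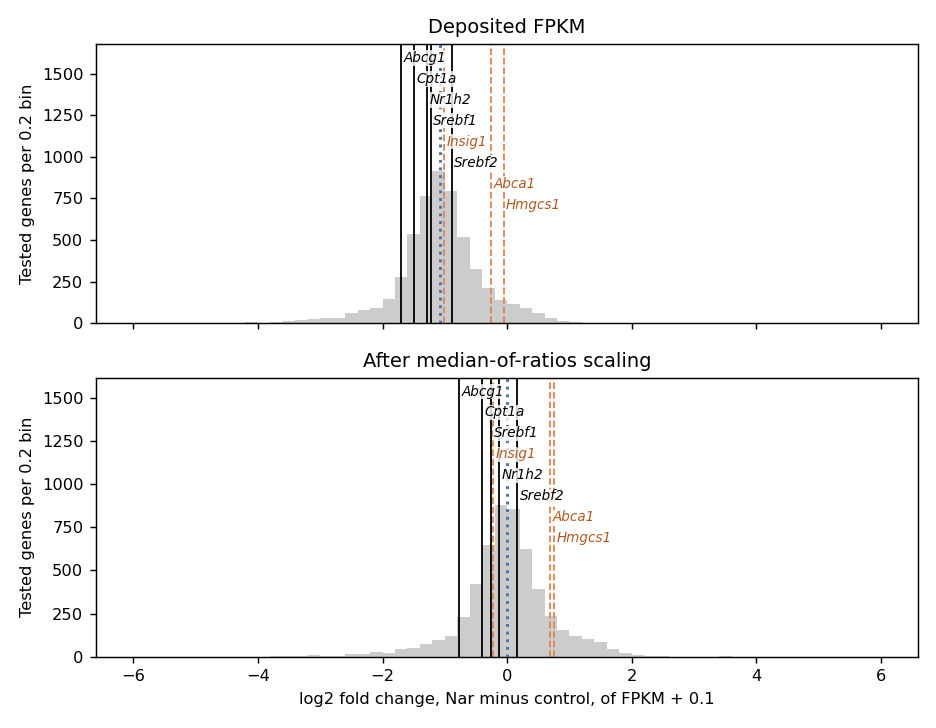
Log2 fold changes (Nar minus control, of FPKM + 0.1) of the 5339 tested genes as histograms in bins of 0.2, on deposited FPKM above and after median-of-ratios scaling below; the dotted line is their median, solid lines are tested members and dashed lines the 3 members under the minimum. The 8 members lie on both sides of the median in both panels, from Abcg1 at -1.71 to Hmgcs1 at -0.06 above, and from -0.77 to 0.76 below.

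A ratio of a pair of genes within a library does not move when the whole library is rescaled. The pairs were formed by role, as the transporters, the transcription factors and the targets of these factors. The ratio of Abcg1 to Abca1 was 2.05 in Ctrl 1 and 1.90 in Ctrl 3, and 0.735 in Nar 1 and 0.425 in Nar 3. It went from 1.97 ± 0.104 (SD, n = 2) in controls to 0.58 ± 0.219 (SD, n = 2) with Nar, a log2 difference of -1.82. The ratio of Insig1 to Hmgcs1 was 1.86 and 1.21 without Nar, against 0.526 and 0.615 with it, a log2 difference of -1.40. In both pairs the groups did not overlap, and an exact two-sided permutation test gave p = 0.33 for each, the smallest possible. Over all pairs of the genes above 0 in every library, 42.2% of ratios had groups that did not overlap. The ratio of Srebf1 to Srebf2 was 0.494 and 0.876 without Nar, against 0.593 and 0.364 with it. There the groups overlapped, the log2 difference was -0.50 and the exact permutation p was 0.67.

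**Figure D3:**
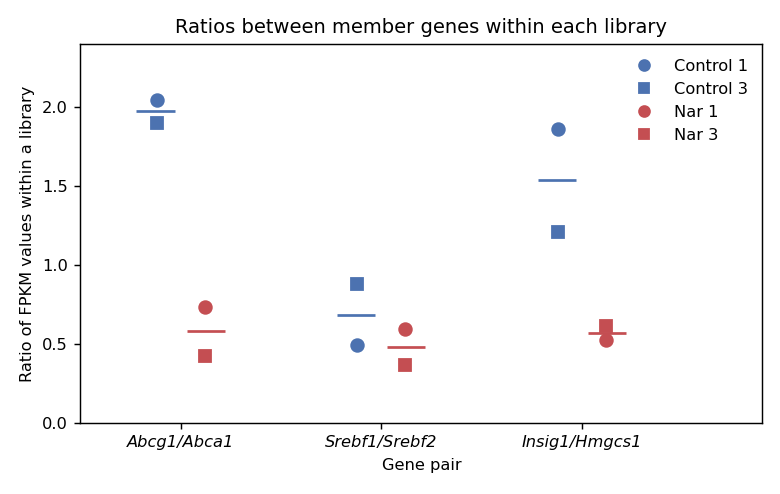
Ratios of FPKM values within each library for 3 pairs of members, on a linear axis from 0; circles are libraries 1, squares libraries 3, and short lines are means of 2 libraries. The ratio of Abcg1 to Abca1 is 2.05 and 1.90 without Nar, against 0.735 and 0.425 with it, and the Srebf1 to Srebf2 ratios overlapped.

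Cpt1a was, after Nr1h2, the most abundant member in each library. It had control values of 2.75 (Ctrl 1) and 3.02 FPKM (Ctrl 3), against 1.12 (Nar 1) and 0.81 FPKM (Nar 3). Within each group the libraries were close, and the Nar mean was 33.4% of the control mean. The log2 fold change was -1.50 (standard error 0.368, limma adjusted p = 0.0208). After median-of-ratios scaling it was -0.40 (standard error 0.337, limma adjusted p = 0.742). Over its 14 alternatives the log2 fold change of Cpt1a ran from -1.71 to -0.36 and its limma adjusted p-value from 0.00463 to 0.802. The lowest adjusted p-value again came from the crossed block. The lowest planned limma adjusted p was 0.0207, with TPM. Of the related transferase genes, Cpt1b was listed at 0.09, 0, 0.01 and 0 FPKM and Cpt1c at 0.05, 0.07, 0 and 0.05, so Cpt1a was the main form of this step in blood. Cpt2, the partner on the inner membrane, had 0.44 and 0.65 FPKM without Nar, against 0.27 and 0.07 FPKM with it, under the minimum for the test.

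Other genes of the same pathways were taken from 7 lists with 132 genes, of which 130 had values and 53 were tested. Of these 53, 26 passed as lower and 0 as higher (limma, adjusted p under 0.05), which is 49.1% beside the 39.6% of all tested genes that passed as lower. Each single list rests on few tested genes, and its count has the same background of 39.6%. Of the 26, 9 were under 0.5 FPKM in both Nar libraries and met the minimum through their controls, among them Insig2, Erlin1, Acss2, Dgat1 and Dgat2. The median log2 fold change of the 53 was -1.12 where the whole tested set had -1.07. With median-of-ratios scaling, 0 of the 53 passed and the median was -0.04. Of the 53, 8 had an unadjusted limma p-value under 0.05, where 797 of all 5339 tested genes did.

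Among the cholesterol synthesis enzymes, where Hmgcs1 belongs, 3 of 20 genes were tested and 1 passed as lower. This was Lbr, a sterol reductase that is also the lamin B receptor of the nuclear envelope, at 4.43 and 4.73 FPKM without Nar, against 0.73 and 0.94 FPKM with it (log2 fold change -2.33, limma adjusted p = 0.00582). Ebp, a sterol isomerase, did not pass, with a log2 fold change of -1.11.

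Of the proteins that hold or release the sterol regulatory element-binding proteins, 5 of 8 tested genes passed as lower. Insig2, the relative of Insig1, had the lowest log2 fold change of them, at 0.64 and 1.1 FPKM without Nar, against 0.2 and 0.24 FPKM with it (log2 fold change -1.56, limma adjusted p = 0.0298), followed by Erlin1 at -1.45 (limma adjusted p = 0.0332). Rnf145, a ubiquitin ligase, and Mbtps1, the site-1 protease, did not pass, with -0.92 and -0.91. Scap, the escort of the precursors, was listed at 0.51, 0.38, 0.2 and 0.1 FPKM and was not tested.

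Of the uptake, trafficking and esterification genes, 6 of 9 tested genes passed as lower. They included Scarb1, the HDL receptor (log2 fold change -1.87, limma adjusted p = 0.0196), Gramd1a, a carrier of cholesterol between membranes (-1.55, limma adjusted p = 0.0188), and Mylip, a ubiquitin ligase gene that is a target of liver X receptors (-1.09, limma adjusted p = 0.0358). Lipa, the lysosomal acid lipase, did not pass, with -0.98. Of the partners of liver X receptors and efflux genes, 3 of 7 tested genes passed as lower, among them the coactivator Ncoa1 (log2 fold change -1.68, limma adjusted p = 0.0258) and the transporter Abca7 (-1.37, limma adjusted p = 0.0399), a relative of Abca1. Apoe, which carries exported cholesterol, and Rxrb, a partner receptor, did not pass, with -0.98 and -0.31.

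In fatty acid synthesis 3 of 6 tested genes passed as lower, with Acly, which supplies cytosolic acetyl-CoA, at a log2 fold change of -1.40 (limma adjusted p = 0.0219) and Acss2 at -1.35 (limma adjusted p = 0.0383). Fads2 and Scd1, a pair of desaturase genes, did not pass, with -0.65 and -0.43. In fatty acid oxidation, beside Cpt1a, 4 of 11 tested genes passed as lower. Etfb, an electron carrier, had a log2 fold change of -1.42 (limma adjusted p = 0.0437) and Hadha, the alpha subunit of the trifunctional protein, one of -1.30 (limma adjusted p = 0.0264). Its beta subunit gene Hadhb had one of -0.04, at 1.36 and 2.04 FPKM without Nar, against 2.32 and 1.12 FPKM with it. Ucp2, a carrier of the inner mitochondrial membrane, had 691.8 and 854.1 FPKM without Nar, against 1078.5 and 970.8 FPKM with it, and did not pass (log2 fold change 0.41, limma adjusted p = 0.33).

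The lowest log2 fold changes of the 7 lists were in triglyceride storage, where 4 of 9 tested genes passed as lower. Dgat1 and Dgat2, which make triglyceride, had log2 fold changes of -3.14 and -2.52 (limma adjusted p = 0.00427 and 0.0104). After median-of-ratios scaling Dgat1 was at -2.12 (limma adjusted p = 0.0593). Fabp4 and Cd36, a fatty acid carrier and a fatty acid receptor, did not pass, with 0.04 and 0.23.

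**Figure D4:**
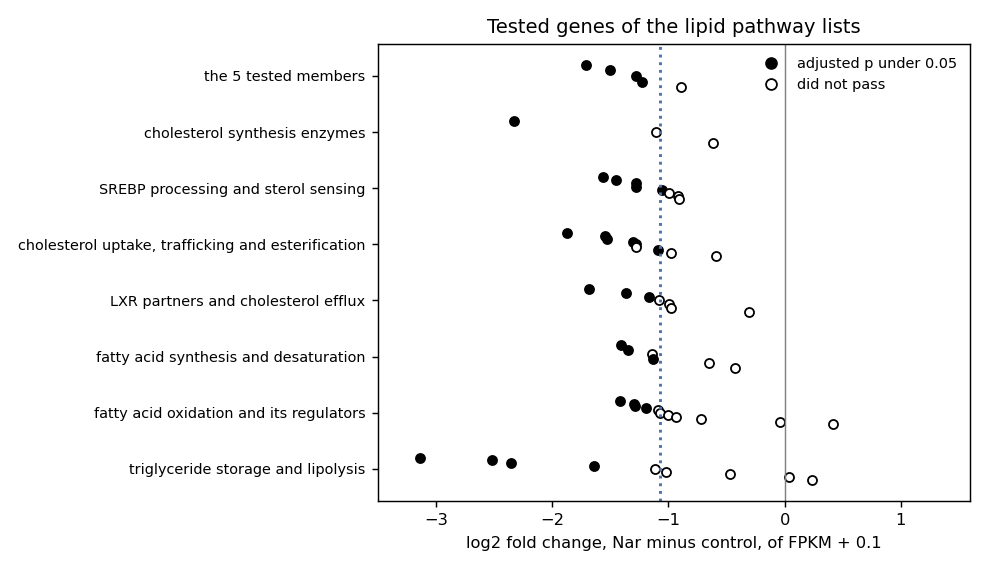
Log2 fold changes (Nar minus control, of FPKM + 0.1) of the 5 tested members and of the 53 tested genes of the 7 pathway lists, 1 point per gene; filled points passed limma at an adjusted p-value under 0.05, the dotted line is the median of all tested genes and the solid line is 0. All filled points are below 0, and Dgat1 at -3.14 is the lowest.

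Markers of several blood cell types moved with the groups, and their part in the values of the 8 members was not tested. All 12 neutrophil markers passed as lower in limma, with a median log2 fold change of -3.67, and their summed level was 1746 and 1442 FPKM in the control libraries and 106 and 165 with Nar. Of 10 monocyte markers 9 were tested and 5 passed as lower, with sums of 382 and 470 FPKM without Nar, against 159 and 103 FPKM with it. The background for these counts is the 39.6% of all tested genes that passed as lower. Under median-of-ratios scaling 6 neutrophil and 2 monocyte markers passed as lower, where 0.787% of all tested genes passed in either direction. None of the 10 B cell, 7 T cell and 10 platelet markers tested passed in limma, nor did the 15 tested erythroid genes other than haemoglobin, whose median log2 fold change was 0.37. Sums over the 4 libraries ran from 34.9 to 48.1 FPKM for B cell and from 8974 to 10982 for erythroid genes. The T cell sums were 16.6 and 26.7 FPKM without Nar, against 11.2 and 8.29 FPKM with it, so these sums did not overlap. Of the 10 T cell markers 4 had both Nar libraries below both controls and 6 overlapped. All 4 were among the 7 tested markers, and of all tested genes 78.3% lay below. The T cell markers under the minimum overlapped, where 40.4% of genes between 0 and that minimum lay below. Much of the sum was Lat, at 7 and 20.2 FPKM without Nar, against 5.24 and 4.03 FPKM with it. The platelet markers had sums of 736 (Ctrl 1) and 2342 FPKM (Ctrl 3), against 659 (Nar 1) and 482 FPKM (Nar 3), so that Ctrl 3 stood apart from the other 3 libraries. Of the hepatocyte markers, 6 of 10 had values, and their sum was at most 0.8 FPKM except for 7.68 in Nar 3. The 1 that was tested, Ttr, passed as higher (limma adjusted p = 0.048), where 0.187% of all tested genes did. Ttr had 0.22 and 0.25 FPKM without Nar, against 0.5 and 7.68 FPKM with it, so it made up the whole sum in Nar 3. Ttr met the minimum mean of 0.5 FPKM only through Nar 3, so it was tested only because of the library where it was highest. After median-of-ratios scaling it did not pass (limma adjusted p = 0.114). Of the adipocyte markers 5 of 7 had values, 3 of them at 0 in every library, with sums between 0.55 and 1.45 FPKM, and the 1 that was tested was Fabp4.

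The genes whose pattern over the 4 libraries was nearest to that of Abcg1, the member with the lowest log2 fold change, were Tmed10, Cep120 and Creb3. Their distance was 0.0509, 0.0589 and 0.0608 log2 units between values centred on the mean of each gene, and 553 tested genes lay within 0.5 units. Nearest to Hmgcs1, the member with the highest log2 fold change, were Hbb-b2, an unnamed gene listed as BGIG10090_44849 and Sbk1, at 0.122, 0.149 and 0.16 log2 units, and 96 tested genes lay within 0.5 units. With 4 libraries, such nearness describes a shared fall or its absence and sets no gene apart.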

How the data were processed

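RNA-seq of mouse blood was used, with 2 Nar and 2 control libraries grouped by their sample titles. The table that the authors deposited holds FPKM for each gene with 2 decimals. Their methods name bowtie-2 for alignment to reference gene sequences and DEGseq for differential expression, which needs read numbers and was not run here. The submitters' processing notes name TopHat2, Cufflinks and GRCm38. Low values showed no step of 1 read, so the depth is unknown and no counting error is given. Of 23136 genes, 5313 were blank in all libraries and were left out, and 0 columns were unmatched.

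Differences were computed on log2(FPKM + 0.1), a scale that shrinks differences of low genes, for the 5339 genes averaging 0.5 FPKM or more. They were tested with limma 3.58.1 in R 4.3.3 (eBayes with a mean-dependent trend, Benjamini-Hochberg adjustment over all tested genes). Every adjusted p-value of a gene comes from limma. Members under the minimum were given an exact permutation test. The correlation of deviations from the group means between same-numbered libraries was -0.153, and nothing in the labels says what a number shares.

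The members, the pathway lists and the marker lists were chosen with earlier results of these data known. All members were named, with the 2 lowest and 2 highest tested genes of each pathway list and a few fixed partners (among them Scap, Insig2, Nr1h3, Mylip and Cpt2). Some genes that this rule names are not reported here. Cpt1b, Cpt1c, Lat and Ttr were named after their values were seen. Alternatives were a pseudocount of 1 or 0.01, no minimum, a minimum mean of 5 FPKM, rescaling to TPM, removal of haemoglobin genes, median-of-ratios scaling, median centring, no trend, a replicate block and each library left out. A block with the pairing crossed, Nar 1 with Ctrl 3 and Nar 3 with Ctrl 1, was not planned and was added after the data were seen. Python 3.11.15 and matplotlib 3.10.9 drew the plots.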

Additional observations from a re-analysis of the deposited data

How the results depend on the processing

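The calls among the members numbered 4 of 5 tested on deposited FPKM. They were 4 with a pseudocount of 1 or 0.01, with TPM and without the trend, 3 with the replicate block and 5 with the crossed block, and 0 without the minimum, with haemoglobin genes removed, with median-of-ratios scaling and with median centring. With each library left out in turn the calls ranged from 0 to 0 among the members, from 0 to 3 among the 53 genes of the lipid pathway lists and from 0 to 259 among all tested genes. In these fits a lone library was assumed to vary like the others, and fewer libraries leave the test less power by construction. Among the pathway list genes, 26 calls became 0 without the minimum, 0 of 5 with a mean FPKM of at least 5, 3 with haemoglobin genes removed, 0 with median-of-ratios scaling and 0 with median centring. Among all tested genes, 2123 calls became 0 without the minimum (limma, with 4978 of 16382 at an unadjusted p-value under 0.05), 117 of 1083 with a mean FPKM of at least 5, 256 with haemoglobin genes removed, 42 with median-of-ratios scaling and 30 with median centring. With a mean FPKM of at least 5 no member was tested.

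With the replicate block, 3 members, 21 pathway list genes and 1815 of all tested genes passed, and the loss was that of Nr1h2. With the pairing crossed, chosen after the data were seen, 5 members, 36 pathway list genes and 3233 of all tested genes passed.

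The median log2 fold change over the tested set, -1.07 as reported, was -0.62 with a pseudocount of 1, -0.57 without the minimum, -0.94 with a mean FPKM of at least 5, -0.61 with haemoglobin genes removed, -0.0016 with median-of-ratios scaling and 0.067 with median centring, both of which level the typical gene by construction. With each library left out it ran from -1.22 to -0.93. The sign of Srebf2 turned with median-of-ratios scaling (0.16) and median centring (0.25). With haemoglobin genes removed, Hmgcs1 was at 0.46 and Abca1 at 0.24. The cause of each other change was not tested. Unknown depth limits members near 0.1 FPKM.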
